A study of Mus musculus with 16 samples.

Results

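Vomeronasal receptor windows are the autosomal stretches of 50 kb, tiled from the start of each chromosome, that overlap a protein-coding gene whose symbol begins with Vmn1r or Vmn2r. They numbered 326 of 47807 autosomal windows and hold 351 receptor genes of the RefSeq annotation GRCm38.p6, which shares the coordinates of mm10. The symbols and positions alone chose them, and no measured value entered the rule. It first gave 330 windows. After the data had been seen, 4 windows of Vmn2r122, Vmn1r186 and Vmn1r187 were left out, because the annotation places these genes before the first listed position of chromosomes 4 and 7. Of the 326 windows, 163 overlapped Vmn1r genes alone, 161 overlapped Vmn2r genes alone and 2 overlapped both. The mean density of listed CpG positions in them is compared with that in the 47481 other windows, in 574 windows of olfactory receptor genes and in 19977 windows without a protein-coding gene.

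The libraries map where the maintenance DNA methyltransferase DNMT1 acted in the mouse embryonic stem cell line E14TG2a. Cells were electroporated with 1 mM Ado-6-azide, a synthetic cofactor from which the engineered enzyme can put an azide-bearing group on cytosine, and DNA was taken 3 h later. Azide-bearing DNA was tagged with an oligonucleotide, enriched and sequenced from the tag, so that each read points to a labelled CpG. The 11 knock-in libraries carried 1 wild-type Dnmt1 allele and 1 N1580A allele: a triplicate called Het, whose culture state the labels do not give, and duplicates from days 0, 2, 4 and 8 of the shift from the naive to the primed state. Naive cells of day 0 grew in serum with leukemia inhibitory factor and 2 kinase inhibitors, CHIR99021 and PD0325901, and the inhibitors were withdrawn for the following days. Both Dnmt1 alleles were wild type in the other 5 libraries, 3 named WT and 2 named WT control, and the labels do not say how these differ. The labels do not state whether replicates were separate cultures or whether the line is 1 clone, so p-values measure no more than the spread between libraries, which may be technical. Those for position counts in single windows reflect mostly counting error.

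Vomeronasal receptors detect pheromones and related chemical signals in sensory neurons of the vomeronasal organ. The V1R receptors, encoded by Vmn1r genes with a short coding sequence in 1 exon, work with the G protein subunit Gnai2 in the apical neurons, and the V2R receptors, encoded by long Vmn2r genes of several exons, work with Gnao1 in the basal neurons. Both families expanded in rodents by repeated duplication, lie in clusters of close copies, and signal through the channel Trpc2. Embryonic stem cells are not sensory neurons, and these data measure where DNMT1 modified DNA and not expression.

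Because the files list positions without sequence, the stretches just before 4 receptor genes are shown to place listed and unlisted CpGs in their context. They are the 250 bases upstream of the annotated start in RefSeq GRCm38.p6, 5′ to 3′ on the gene's strand, with every CpG in capitals. Vmn1r87 (chr7:13132359-13132608, minus strand) had the most listings of its family, its 3 CpGs being listed in 2, 4 and 1 of the 11 knock-in libraries. Vmn2r17 (chr5:109419763-109420012, plus strand) is 1 of 5 promoters of the other family that shared its highest count, 5 listings, beside those of Vmn2r9, Vmn2r29, Vmn2r53 and Vmn2r56, and is shown as the first by name. Its 3 CpGs were listed in 0, 2 and 3 libraries.
Vmn1r87: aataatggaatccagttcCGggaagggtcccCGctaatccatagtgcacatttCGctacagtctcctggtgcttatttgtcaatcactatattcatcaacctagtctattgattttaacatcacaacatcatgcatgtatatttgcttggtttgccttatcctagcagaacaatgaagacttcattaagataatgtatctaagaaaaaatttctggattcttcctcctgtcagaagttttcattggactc
Vmn2r17: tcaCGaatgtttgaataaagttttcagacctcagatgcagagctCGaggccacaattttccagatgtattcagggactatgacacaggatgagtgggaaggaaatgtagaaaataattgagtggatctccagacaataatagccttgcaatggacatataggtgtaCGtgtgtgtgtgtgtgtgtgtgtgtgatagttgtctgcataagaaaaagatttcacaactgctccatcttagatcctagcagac

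Vmn1r111 (chr7:20703217-20703466, minus strand) and Vmn1r242 (chr7:20233829-20234078, minus strand) are the most alike pair that is not identical among promoters in windows where no library listed a position. They share 249 of 250 bases, and the single CpG in each was listed in none of the 11 libraries. Both lie in the largest cluster of Vmn1r genes, on chromosome 7.
Vmn1r111: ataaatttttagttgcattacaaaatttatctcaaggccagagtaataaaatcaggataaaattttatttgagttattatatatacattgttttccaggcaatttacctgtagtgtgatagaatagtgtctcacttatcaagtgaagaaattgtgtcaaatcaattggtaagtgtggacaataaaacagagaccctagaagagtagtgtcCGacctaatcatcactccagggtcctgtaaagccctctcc
Vmn1r242: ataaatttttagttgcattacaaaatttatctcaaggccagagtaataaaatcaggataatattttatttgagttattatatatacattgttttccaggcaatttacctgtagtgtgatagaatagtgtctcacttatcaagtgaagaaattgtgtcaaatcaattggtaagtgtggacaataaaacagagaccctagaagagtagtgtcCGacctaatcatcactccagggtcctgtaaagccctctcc

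Knock-in libraries listed 383292 to 3362003 autosomal positions from 4134592 to 24774977 reads, and wild-type libraries listed 945 to 9027 positions from 1609 to 22608 reads. In the promoter sequences available, 38705 of 38705 listed positions fell on the C of a CpG. Day 0 stood apart from the other knock-in libraries. Its 2 libraries listed the fewest positions, 383292 and 399896, against 1245488 to 3362003 in the 9 others. Across the receptor windows its replicates had a Spearman correlation of 0.722, and replicates of the other groups had 0.855 to 0.899, which describes windows and not independent replicates. Results that rest on day 0 are therefore given with its 2 libraries apart from the 9 others.

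Receptor windows held a small share of the listed positions. The share was 0.245%, 0.236% and 0.231% in Het libraries. It was 0.277% and 0.274% on day 0, 0.232% and 0.234% on day 2, 0.230% and 0.230% on day 4, and 0.231% and 0.236% on day 8. Both day 0 libraries lay above the 9 others, which spanned 0.230% to 0.245%. The 95% Clopper-Pearson interval of the first day 0 library, 0.260% to 0.294%, did not reach the highest share of those 9, and the intervals cover counting error only. With windows of 20 kb day 0 no longer stood apart. Its libraries then held 0.134% and 0.139%, against 0.129% to 0.137% in the 9 others.

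**Figure D1:**
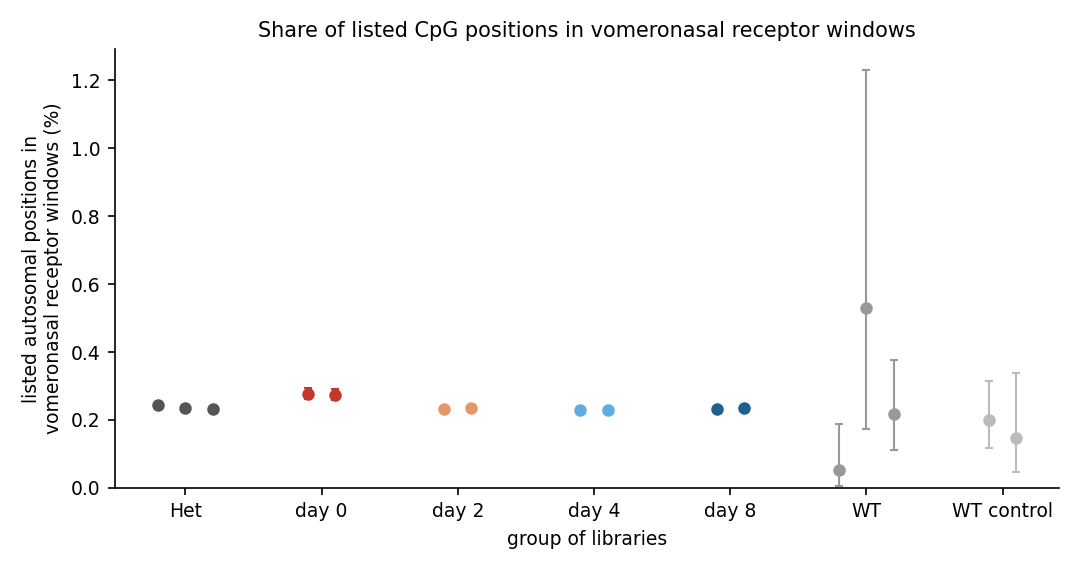
Share of listed autosomal CpG positions in vomeronasal receptor windows (percent, vertical axis) for each library, by group along the horizontal axis; points are libraries and bars are 95% Clopper-Pearson intervals. The 11 knock-in libraries lie between 0.230% and 0.277%, with day 0 highest, and the 5 wild-type libraries, with 42 positions in all, spread from 0.0522% to 0.529%.

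Over the 8 day libraries the share of positions correlated with the day at Pearson r = -0.657 (two-sided exact permutation p = 0.0611, adjusted p = 0.0917). Spearman's rho was -0.586 (exact p = 0.153, adjusted p = 0.230). The share of reads, 0.201% to 0.247% in knock-in libraries, gave r = -0.549, with an exact p = 0.135 that adjustment left at 0.135, and rho = -0.488, with an exact p = 0.247 that adjustment left at 0.247. Neither trend passed the threshold, with p adjusted over 3 trends and a smallest possible exact p of 0.000397 for r. Days 0, 2 and 4 alone gave r = -0.893 in positions and r = -0.785 in reads, the day 8 libraries being farthest from the median day. Counting positions with at least 2 reads gave r = -0.721 with an exact p = 0.0437, and windows of 20 kb gave r = -0.219 for positions and 0.380 for reads.

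Listed positions were sparse in receptor windows compared with the rest of the genome. A receptor window held on average 12.1, 24.3 and 18.4 positions in Het libraries, 3.25 and 3.36 on day 0, 8.87 and 9.23 on day 2, 14.5 and 17.9 on day 4, and 21.4 and 18.5 on day 8. The means ranged from 3.25 to 24.3 in receptor windows, against 8.05 to 70.6 in other windows. Within a library, the receptor windows lay at 0.352-fold the density of the other windows (geometric mean, range 0.335 to 0.404, lower in 11 of 11 libraries). They lay at 0.484-fold the density of windows without a protein-coding gene (0.457 to 0.534) and at 0.669-fold that of olfactory receptor windows (0.635 to 0.779). Each of the 3 ratios had a two-sided exact sign-flip permutation p = 0.000977, adjusted p = 0.000977 over 6 such tests, the smallest value that 11 libraries can give. The libraries share a genome and a mapping, so this p speaks of libraries and not of windows.

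**Figure D2:**
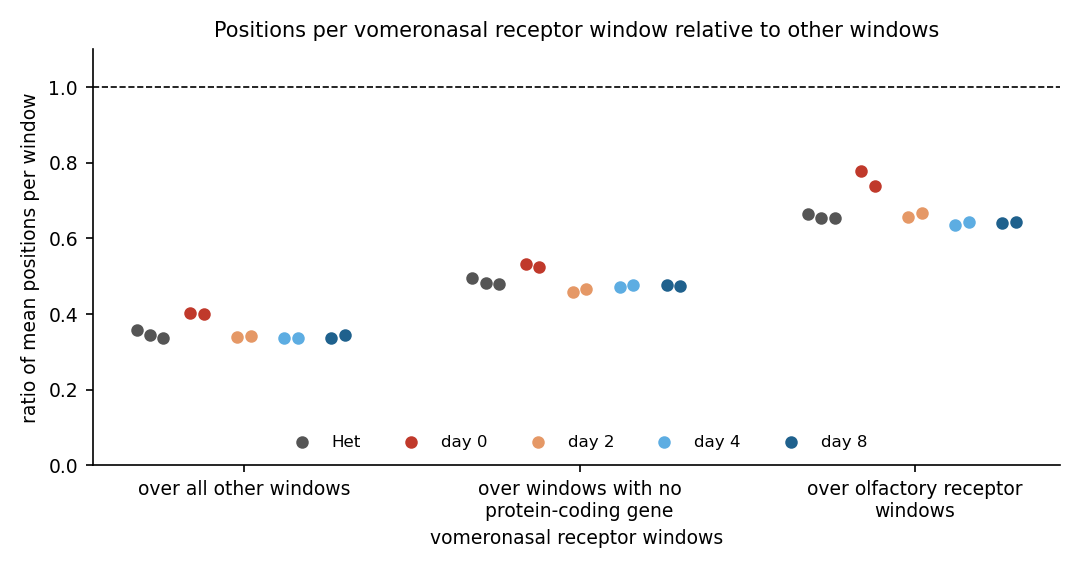
Mean listed positions per vomeronasal receptor window divided by the mean of all other windows, of windows with no protein-coding gene and of olfactory receptor windows (vertical axis, ratio), 1 point for each knock-in library, coloured by group; the dashed line marks a ratio of 1. All points lie below the line, and the 2 day 0 libraries are the highest in each comparison.

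On day 0 the ratio to other windows was 0.404 and 0.400, and in the 9 other knock-in libraries it was 0.335 to 0.358. No reference genome sequence was used here, so the number of CpGs in each window was not counted. The positions listed in at least 1 knock-in library give a partial stand-in for it: they averaged 93.4 in receptor windows, against 243 in other windows, 139 in olfactory receptor windows and 183 in windows without a protein-coding gene. Per position listed in any knock-in library, the mean log2 ratio to other windows was -0.13 (exact p = 0.00488) in place of -1.51. The ratio to windows without a protein-coding gene was -0.08 (exact p = 0.00977) in place of -1.05. That to olfactory receptor windows was -0.0071 (exact p = 0.814) in place of -0.58, which ended the call. Because this denominator is built from the same libraries, it takes up any difference in detection along with the number of CpGs.

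Positions inside receptor windows also carried fewer reads each. The mean was 6.69 ± 2.41 reads per position in receptor windows and 7.59 ± 2.90 in other windows (SD, n = 11), a ratio of 0.889 (range 0.843 to 0.918, lower in 11 of 11 libraries, exact sign-flip p = 0.000977, adjusted p = 0.000977). The most-read receptor position, at base 24096024 of chromosome 7, had 92 reads in day 0 replicate 2. Receptor windows thus held no single position that took a large part of their 10196 to 51203 reads per knock-in library.

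The windows differed widely among themselves. Density was scaled to ppm, the positions of a window per 1000000 autosomal positions of the same library. Averaged over the 11 knock-in libraries, the median receptor window held 7.37 ppm, with quartiles of 3.45 and 10.42 ppm, and the median other window held 18.2 ppm. The highest were the windows of the V1R genes Vmn1r88 (chr7:13150001-13200000, 27.2 ppm), Vmn1r1 (chr1:182150001-182200000, 26.8) and Vmn1r74 (chr7:11800001-11850000, 24.7). At the other end, 39 windows (11.96%) listed no position in any of the 11 libraries. Another 3 listed a single position, in day 8 replicate 1. They are the windows of Vmn2r42 and Vmn2r43 (chr7:8200001-8250000), Vmn1r256 (chr7:22550001-22600000) and Vmn2r20 (chr6:123400001-123450000).

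The 39 empty windows were concentrated on chromosome 7, which held 37 of them and 158 of the 326 receptor windows. The remaining 2 lay on chromosome 6. They comprised 23 Vmn1r and 16 Vmn2r windows. Counting windows with fewer than 10 positions over all 11 libraries gave 58 of 326 receptor windows, against 270 of 47481 other windows, 1 of 574 olfactory receptor windows and 117 of 19977 windows without a protein-coding gene. Other windows entered only if some knock-in library listed a position in them, so the count at 0 cannot be compared, whereas the count below 10 can only be too low for them. Leaving the empty windows out, the mean log2 ratio was -1.32 to other windows, -0.40 to olfactory receptor windows and -0.86 to windows without a protein-coding gene.

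Vmn1r windows held somewhat more positions than Vmn2r windows. A Vmn1r window averaged 3.67 and 3.91 positions on day 0, 9.35 and 9.77 on day 2, 15.1 and 19.0 on day 4, and 22.0 and 19.2 on day 8. The Vmn2r means were 2.81 and 2.83 on day 0, 8.39 and 8.71 on day 2, 13.9 and 16.7 on day 4, and 20.8 and 17.8 on day 8. The ratio of the Vmn1r to the Vmn2r mean was 1.15 (range 1.05 to 1.38, higher in 11 of 11 knock-in libraries, exact sign-flip p = 0.000977, adjusted p = 0.000977). Positions listed in any knock-in library averaged 96.5 in a Vmn1r window and 90.2 in a Vmn2r window, and per such position the log2 ratio was 0.10 (exact p = 0.00293) in place of 0.20. With windows of 20 kb it was 0.09 (exact p = 0.0156).

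The genes themselves differed in how often they were hit and in length. The 229 Vmn1r coding genes have a median length of 0.924 kb, and 143 of them (62.4%) held a listed position in some knock-in library. The 122 Vmn2r coding genes have a median length of 24.6 kb, and 104 (85.2%) did. Pseudogenes held one in 54.0% of 137 Vmn1r and 63.3% of 128 Vmn2r cases. Per kb, the positions listed in any knock-in library were 1.89 in Vmn1r and 1.60 in Vmn2r coding genes. Of all 351 coding receptor genes, 247 held a position in at least 1 knock-in library and 104 held none.

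Vmn2r1, which belongs with Vmn2r2 to the small group of V2R genes that are expressed beside other V2R genes in the same neuron, was the most often listed gene. It spans chr3:64078172-64220847 and held 65, 104 and 79 positions in Het libraries, 14 and 23 on day 0, 55 and 47 on day 2, 86 and 82 on day 4, and 130 and 100 on day 8. Vmn2r60 and Vmn2r2 followed, with 352 and 286 listings summed over 11 libraries, against 785 in Vmn2r1. Vmn2r2 lies inside the span of Vmn2r1, so its positions are counted for both. The longest receptor genes without a listed position were Vmn2r21 on chromosome 6 (40899 bases) and, on chromosome 7, Vmn2r36 (25810 bases) and Vmn2r47 (24544 bases).

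With the bases of all receptor windows pooled, positions were sparser in receptor gene bodies than between them, most of all on day 0. The density inside coding receptor genes relative to the other bases of these windows had a geometric mean of 0.735 over 11 libraries (range 0.501 to 0.849, lower in 11 of 11, exact sign-flip p = 0.000977, adjusted p = 0.000977). Coding gene bodies total 3258 kb for Vmn2r and 355 kb for Vmn1r, so this ratio describes mainly Vmn2r genes. It was not taken window by window, so differences between clusters enter it and the distance profile. Per position listed in any knock-in library the mean log2 ratio was -0.17 (exact p = 0.0176) in place of -0.44. Relative to all bases of the windows, gene bodies stood at 0.824 ± 0.0323 in Het (SD, n = 3). For days 0, 2, 4 and 8 the values were 0.569 ± 0.0106, 0.794 ± 0.00762, 0.858 ± 0.0283 and 0.870 ± 0.00224 (SD, n = 2 each). Sequence within 2 kb of a gene was low as well, at 0.420 and 0.577 on day 0 and 0.724 to 0.842 in the 9 others.

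**Figure D3:**
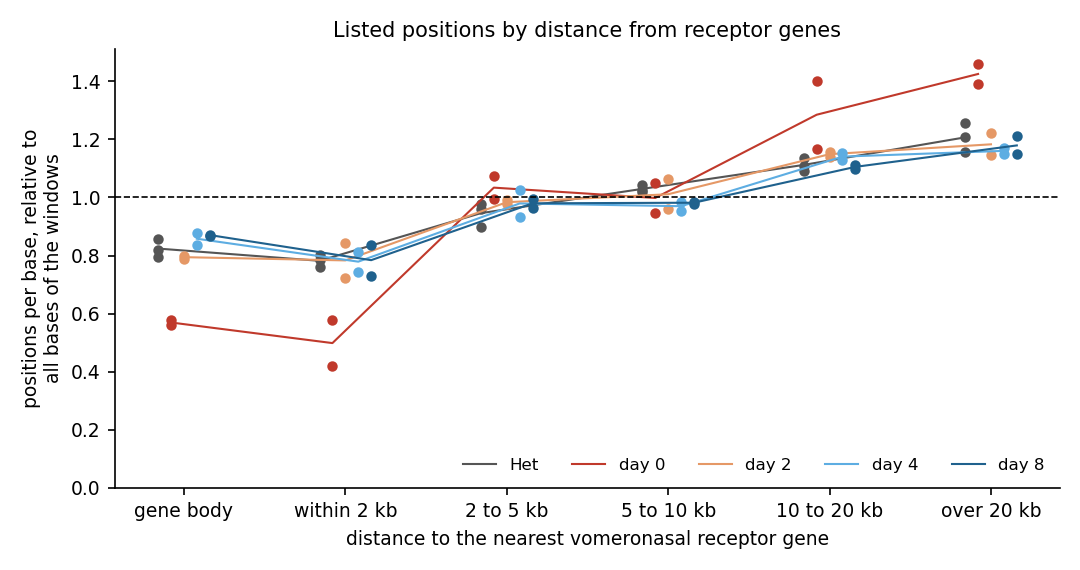
Listed positions per base relative to all bases of the receptor windows (vertical axis, ratio), by distance to the nearest coding vomeronasal receptor gene (horizontal axis); points are knock-in libraries, lines join group means and the dashed line marks 1. Day 0 runs lowest in gene bodies (0.562 and 0.577) and highest beyond 20 kb (1.39 and 1.46), and the other groups run closer to 1.

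Away from the genes the order turned. Beyond 20 kb from any receptor gene the relative density was 1.39 and 1.46 on day 0 and 1.14 to 1.26 in the 9 others, and at 2 to 5 kb and 5 to 10 kb all 11 libraries lay between 0.898 and 1.07. The gene body ratio was also tested against the day, a test added after its values had been seen. Spearman's rho was 0.878 (two-sided exact permutation p = 0.0103, adjusted p = 0.0310), which passed. Pearson's r was 0.794 (exact p = 0.0321, adjusted p = 0.0917), which did not. Without both day 8 libraries r was 0.939. Without replicate 1 of day 4 the unadjusted exact p for r was 0.0524. The 2 day 0 libraries were the lowest and also held the fewest positions. The parts of depth and of the mix of clusters in this were not tested.

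The low day 0 density in gene bodies was not shared by all kinds of receptor gene. In ppm per kb, Vmn2r coding genes held 0.0889 and 0.102 on day 0 and 0.111 to 0.128 in the 9 other knock-in libraries, with no overlap. Vmn1r coding genes held 0.169 and 0.0985 on day 0 and 0.113 to 0.160 in the others, so the day 0 libraries fell on either side. Vmn2r pseudogenes held 0.190 and 0.183 on day 0 and 0.117 to 0.138 in the others, above all of them. Vmn1r pseudogenes held 0.119 and 0.0915 on day 0 and 0.0964 to 0.166 in the others, so the groups overlapped. These differences between day 0 and the others were not tested, and how often other sets of genes set day 0 apart was not counted.

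By position along the chromosomes, the windows formed 27 clusters on 11 chromosomes, joining windows at most 500 kb apart. Of these, 7 were single windows, and the 8 largest held 227 windows. The largest, on chromosome 7 from 20.1 to 24.1 Mb, has 57 windows and 86 Vmn1r genes and was nearly bare. It held 1.65 and 2.59 ppm per window on day 0 and 1.99 to 2.43 in the 9 other knock-in libraries, and 23 of its windows were empty. A cluster of 35 windows at 7.2 to 10.75 Mb of the same chromosome, with 6 Vmn1r and 24 Vmn2r genes, held 2.31 and 2.14 on day 0 and 2.43 to 3.58 in the others, with 14 windows empty.

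**Figure D4:**
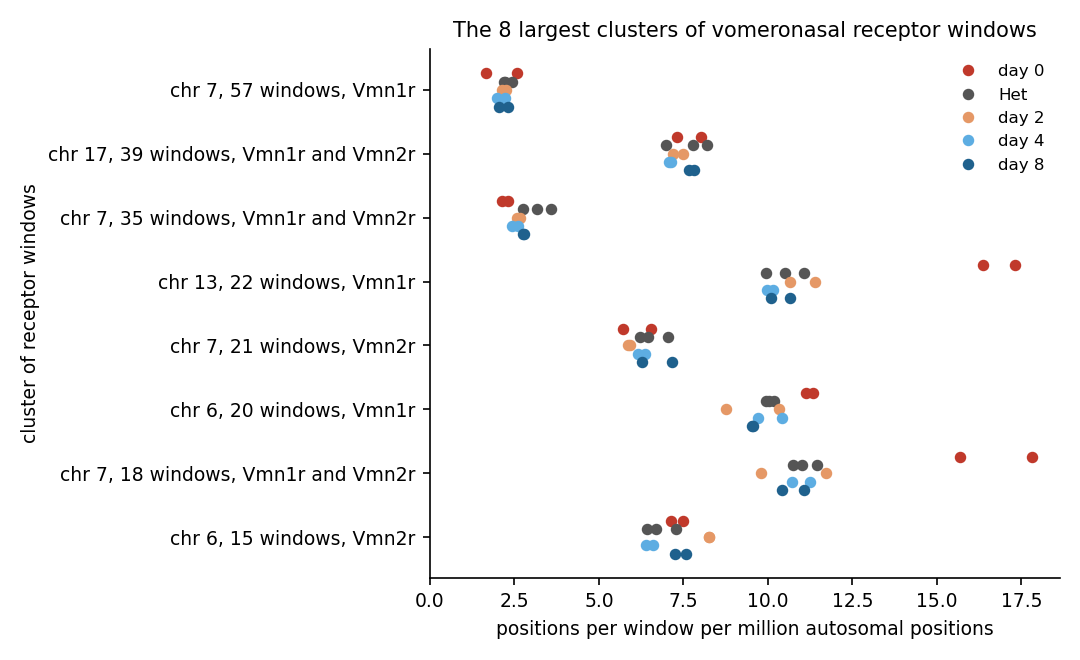
Listed positions per window in ppm of the library's autosomal positions (horizontal axis) in the 8 largest clusters of vomeronasal receptor windows (vertical axis, with chromosome, number of windows and families); each point is a knock-in library, coloured by group. The clusters on chromosome 13 (22 windows) and chromosome 7 (18 windows) have both day 0 libraries well to the right, and the 57-window and 35-window clusters of chromosome 7 lie lowest.

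In 3 of the 8 largest clusters both day 0 libraries lay above the 9 others. The cluster on chromosome 13 at 22.05 to 23.3 Mb, with 22 windows and 36 Vmn1r genes, held 17.3 and 16.4 ppm per window on day 0 and 9.95 to 11.4 in the 9 others. Chromosome 7 at 11.65 to 13.25 Mb, with 18 Vmn1r and 4 Vmn2r genes in 18 windows, held 17.8 and 15.7 on day 0 and 9.81 to 11.7 in the others. The chromosome 6 cluster at 56.9 to 58.5 Mb (20 windows, 28 Vmn1r genes) held 11.3 and 11.1 on day 0 and 8.75 to 10.41 in the others.

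In the 3 remaining large clusters the day 0 libraries overlapped the others. The cluster on chromosome 17 at 17.7 to 21.35 Mb, with 14 Vmn1r and 22 Vmn2r genes in 39 windows, held 8.03 and 7.31 on day 0 and 6.99 to 8.19 in the 9 others. Chromosome 7 at 84.9 to 87.05 Mb (21 windows, 15 Vmn2r genes) held 5.71 and 6.55 on day 0 and 5.85 to 7.15 in the others. The chromosome 6 cluster at 123.3 to 124.25 Mb (15 windows, 9 Vmn2r genes) held 7.13 and 7.50 on day 0 and 6.40 to 8.24 in the others. Over all 27 clusters, both day 0 libraries lay above the 9 others in 10 and below them in 3. Some rest on few positions, such as the single window on chromosome 4 at 3.15 Mb, with 5 and 10 on day 0. How often groups of other windows set day 0 apart in this way was not counted. The cluster counts are therefore a description and not a trait of receptor clusters.

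Single windows were then tested between the last and the first day of priming, day 8 against day 0, counting each listed position once. Among 221 receptor windows tested, 15 fell (6.79%) and 0 rose, where 3.09% of all 46018 windows tested fell and 1.45% rose (edgeR quasi-likelihood test over the 8 day libraries, Benjamini-Hochberg adjusted p under 0.05). At an unadjusted p under 0.05, 41 fell and 14 rose. The share of all windows or genes at this unadjusted threshold was not counted, here or below, so such counts are a description only. The 15 were 13 Vmn1r and 2 Vmn2r windows, of 112 and 107 tested, and they lay on 8 chromosomes, 4 of them on chromosome 7. The other 105 receptor windows had too few positions to be tested. On day 0 all receptor windows, tested or not, averaged 3.25 and 3.36 positions, against 8.05 and 8.40 in other windows. Such low counts left little room for calling a rise. Of the 9 receptor windows called higher by reads (below), 7 were also tested by positions, and 0 of these were called. The count of 0 that rose is therefore no evidence that receptor windows changed only downward. The median log2 change was -0.13 over the tested receptor windows and 0.04 over all tested windows.

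The V1R window of Vmn1r84 (chr7:12350001-12400000) had the largest decrease. It held 7.30 and 5.48 ppm (22 and 14 positions) on day 8, against 23.5 and 30.0 ppm (9 and 12 positions) on day 0. The values in ppm were 10.44 and 6.998 on day 2, 9.24 and 8.69 on day 4 and 5.58, 10.11 and 9.25 in Het. Both day 0 libraries stood above the other 9 without overlap, and the 9 others lay together. The log2 change was -2.09 ± 0.43 (SE, edgeR adjusted p = 0.000526).

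The window of Vmn1r208 (chr13:22750001-22800000) held 10.96 and 9.78 ppm on day 8, against 44.4 and 25.01 on day 0, and 7.29 to 17.4 over the 9 libraries other than day 0. Its log2 change was -1.77 ± 0.36 (edgeR adjusted p = 0.000411). Again the 2 day 0 libraries lay above all the others, though far from each other. In the window of Vmn1r74, among the 3 densest of all, day 8 libraries held 17.6 and 14.9 ppm, against 49.6 and 47.5 on day 0 (log2 change -1.62 ± 0.30, edgeR adjusted p = 5.70e-05), and the 9 libraries other than day 0 held 14.8 to 33.7. Here the upper end of that range came from day 2 replicate 1, with 33.7.

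Vmn1r77 (chr7:12000001-12050000) held 9.96 and 10.17 ppm on day 8, against 39.1 and 25.01 on day 0, a log2 change of -1.71 ± 0.37 (edgeR adjusted p = 0.00108), and lies in the same cluster as Vmn1r74 and Vmn1r84. The window of Vmn1r2 and Vmn1r3 (chr4:3150001-3200000) held 8.96 and 3.13 ppm on day 8, against 13.04 and 25.01 on day 0. Its log2 change was -1.65 ± 0.49 (edgeR adjusted p = 0.0295), and its day 0 values rest on 5 and 10 positions. Vmn1r45 (chr6:89900001-89950000) held 8.63 and 3.52 ppm on day 8, against 7.83 and 32.5 on day 0. Its log2 change was -1.74 ± 0.49 (edgeR adjusted p = 0.0182), and its day 0 values rest on 3 and 13 positions. In this window the groups overlapped, as day 0 replicate 1 lay within the range of the 9 other libraries. The fit of positions allowed little spread between replicates beyond counting error, so the call takes little account of this. Both day 0 libraries lay above all 9 others in 13 of the 15 windows, and in 92.0% of the 1424 windows of the whole genome that were called lower on day 8. The day 8 and day 0 values did not overlap in 13 of the 15 and in 99.1% of the 1424. Calling a window lower on day 8 selects for such separation, so these counts add nothing to the call.

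The count depended on the day 0 libraries. Without day 0 replicate 1 it was 7 of 248 tested (2.82%), beside 0.940% of all windows, and without replicate 2 it was 6 of 246 (2.44%), beside 0.760%. It was 8 of 221 (3.62%) with DESeq2, beside 1.43%, and 3 of 82 (3.66%) with windows of 20 kb, beside 1.22%. In each of these 4 settings 0 receptor windows rose, under the same limit of low day 0 counts. With day 0 left out, 0 receptor windows differed between day 8 and day 2, as did 15 of all windows (edgeR, with 17 receptor windows at an unadjusted p under 0.05). Against day 0, 3 receptor windows fell and 0 rose on day 2 in edgeR (33 and 6 at an unadjusted p under 0.05), where 0.776% of all windows fell and 0.246% rose. On day 4, 15 fell and 1 rose, where 2.81% of all windows fell and 1.41% rose.

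Reads gave a different picture. Of 262 receptor windows tested for day 8 against day 0, 9 rose (3.44%) and 4 fell (1.53%), where 2.45% of all 47383 windows rose and 1.29% fell, shares close to those of the receptor windows (edgeR quasi-likelihood test, adjusted p under 0.05). At an unadjusted p under 0.05, 31 rose and 24 fell. Only 3 windows were called by both reads and positions, all 3 lower on day 8. The 4 that fell were the windows of Vmn1r16 (chr6:57300001-57350000; log2 change -2.14, adjusted p = 0.0344), Vmn1r208 (-2.04, adjusted p = 0.0455), Vmn1r238 (-1.85, adjusted p = 0.0351) and Vmn2r63 (chr7:42900001-42950000; -1.47, adjusted p = 0.0449).

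In 5 of these 9 windows neither day 0 library listed any position, so their folds are lower bounds. Each bound is the share of positions on day 8 over a floor of 3 positions in both day 0 libraries together, and it covers counting error on day 0 only. The V2R window of Vmn2r76 (chr7:86200001-86250000) held 17 and 23 positions on day 8, against 0 and 0 on day 0, and was at least 1.88-fold higher (edgeR adjusted p = 0.0264). The libraries of days 2 and 4 and Het also listed positions there, 11 and 5 on day 2, 20 and 15 on day 4 and 13, 27 and 15 in Het.

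Vmn2r124 and Vmn2r91 share a window (chr17:18050001-18100000) with 19 and 17 positions on day 8, against 0 and 0 on day 0, at least 1.69-fold higher (edgeR adjusted p = 0.0273). Vmn2r105 (chr17:20200001-20250000) held 21 and 10, and Vmn2r7 (chr3:64650001-64700000) held 19 and 12, each against 0 and 0 on day 0 and each at least 1.45-fold higher (edgeR adjusted p = 0.0337 and 0.0378). Vmn2r113 (chr17:22900001-22950000) held 11 and 16, against 0 and 0, at least 1.27-fold higher (edgeR adjusted p = 0.0494). All 5 called windows without a day 0 position were V2R windows, which describes these 5 only. A window without a day 0 position could pass the filter only through the later days and could only be called higher. These 5 calls therefore support no rise by themselves. Among the windows tested by reads, 10 of 262 receptor windows had no day 0 position, beside 576 of all 47383.

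Vmn1r174 (chr7:23750001-23800000) held 18 and 25 positions on day 8, against 0 and 1 on day 0, and its share was 6.05 times as high, with a 95% counting interval of 1.03 to 244 (edgeR adjusted p = 0.0337). None of the 13 read-based calls in receptor windows passed when any 1 of the 6 libraries of days 2, 4 and 8 was left out, nor with only the 4 libraries compared, where the count was 0 with 38 at an unadjusted p under 0.05. DESeq2 called 49 of 262 in either direction (18.7%), beside 17.7% of all windows. Without day 0 replicate 1, edgeR called 74 of 264 (28.0%), beside 28.8% of all windows, and without replicate 2 it called 86 of 264 (32.6%), beside 29.5%. Against day 0, 4 rose and 0 fell in edgeR on day 2 (31 and 23 at an unadjusted p under 0.05), beside 1.58% and 0.534% of all windows. On day 4, 7 rose and 2 fell, beside 2.49% and 1.28% of all windows.

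Among the receptor gene bodies, 106 of 351 had enough reads for the test, 88 of them Vmn2r genes, and 34 of the 106 had no position on day 0. Vmn2r65 (chr7:84940169-84964009) was the single gene that rose, and 0 fell, where 1.82% of all 30243 gene bodies tested rose and 0.718% fell. It held 13 and 16 positions on day 8, against 0 and 0 on day 0. Libraries of day 2 held 4 and 5, those of day 4 held 7 and 11, and Het libraries held 7, 11 and 14. Both day 0 libraries were thus below all 9 others, which follows from their counts of 0. Vmn2r65 was at least 1.36-fold higher on day 8 (edgeR adjusted p = 0.0462). Without a day 0 position it could pass the filter only through the later days and could only be called higher. Its call therefore supports no rise by itself.

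At an unadjusted p under 0.05, 25 receptor genes rose and 0 fell on day 8, and the share of all gene bodies was not counted. The median of the fitted log2 changes was 1.07 over the 106 receptor genes, 82 of them positive, and 0.18 over all genes. The fitted value of a gene without a day 0 position depends on the prior count, and with such genes at their lower bounds the medians were -0.05 and -0.03, which are floors. A gene with few reads on day 0 could pass the filter only through the later days. These medians, the count of 82 and the unadjusted counts of any day therefore support nothing. The call of Vmn2r65 was lost without any 1 of the 6 libraries of days 2, 4 and 8, and DESeq2 called 20 of 106 receptor genes (18.9%), all higher, beside 12% of all gene bodies called higher. On day 4, 2 receptor genes rose and 0 fell (27 and 1 at an unadjusted p under 0.05), and on day 2 the count was 0 in both directions, where 2.09% and 0.837% of gene bodies rose and fell on day 4 and 0.737% and 0.165% on day 2. On day 2, 20 rose and 3 fell at an unadjusted p under 0.05 in edgeR.

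Genes that act downstream of the receptors were counted from a list of 32 genes for transduction and identity of vomeronasal neurons. Of 31 tested gene bodies, 0 rose and 0 fell (edgeR, lowest adjusted p = 0.0633, for the olfactory marker protein gene Omp), 5 and 4 did at an unadjusted p under 0.05, and DESeq2 called 9, beside 17.5% of all gene bodies. The median log2 change was 0.05, or -0.17 with genes without a day 0 position at their bound, beside 0.18 and -0.03 over all genes. Trpc2, the shared channel, held 54 and 45 positions on day 8, against 7 and 8 on day 0 (log2 change of reads -0.19, adjusted p = 0.892). Gnai2, the V1R partner, held 58 and 36 on day 8, against 6 and 2 on day 0 (0.85, adjusted p = 0.389). Gnao1, the V2R partner, held 406 and 292 on day 8, against 48 and 55 on day 0 (0.05, adjusted p = 0.886). The 7 formyl peptide receptor genes, some of which serve as vomeronasal receptors, had 3 tested and 0 called by edgeR or DESeq2 (lowest edgeR adjusted p = 0.190, 1 higher at an unadjusted p under 0.05).

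The promoters allowed a count against reference CpGs. RefSeq promoter sequences, 250 bases before to 50 after the start, were found for 322 of the 351 receptor genes and held 482 CpGs, 1.497 per promoter. Of these CpGs, 127 (26.3%) were listed in some knock-in library, against 687 of 1204 (57.1%) in 938 olfactory receptor promoters. Among promoters of 1 to 4 CpGs, the share was 117 of 448 (26.1%) in receptor promoters and 57.5% in the others. All other promoters together, with 15.96 CpGs each on average, had 6.84% of CpGs listed, below the receptor promoters. By library, receptor promoters had 19, 36 and 19 listed CpGs in Het. They had 2 and 2 on day 0, 9 and 15 on day 2, 12 and 17 on day 4, and 21 and 32 on day 8. The share listed in a library was 0.366-fold that of olfactory receptor promoters (range 0.192 to 0.624, lower in 11 of 11, two-sided exact sign-flip p = 0.000977, adjusted p = 0.00130 over 4 tests). These promoter tests were added after the values had been seen.

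Likeness between promoters moved with this result. Each promoter was scored by the share of its 25-base words that also occur in the promoter of another gene, on either strand. In the 79 receptor promoters with 90% or more shared words, 0 of 161 CpGs were listed. This would allow a share of up to 1.86% if the CpGs were independent, which CpGs of near-identical copies are not. In those with 10 to 90% shared words 58 of 162 CpGs (35.8%) were listed, and in those with under 10%, 69 of 159 (43.4%). The 79 were 63 Vmn1r and 16 Vmn2r promoters, 74 of them on chromosome 7. Of the 79, 40 lay in the windows without any position, so that their count of 0 was fixed in advance. The promoters of Vmn1r111 and Vmn1r242 printed above belong to these 40.

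**Figure D5:**
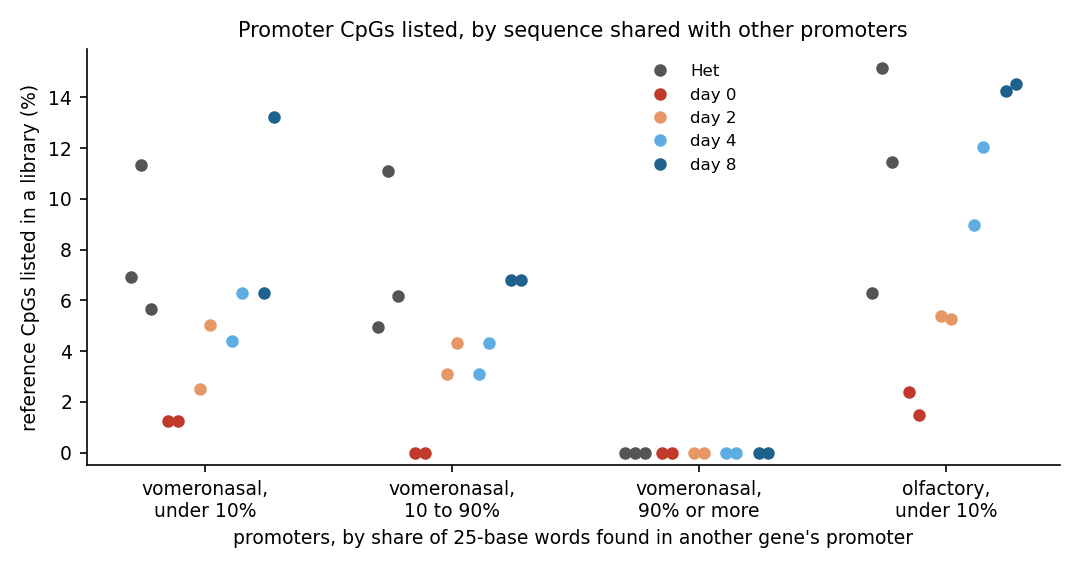
Share of reference CpGs in promoters that each knock-in library listed (percent, vertical axis), by share of 25-base words found in another gene's promoter (horizontal axis), for vomeronasal receptor promoters and for olfactory receptor promoters with under 10% shared words; points are libraries, coloured by group. No CpG was listed in vomeronasal promoters with 90% or more shared words, and in those with under 10% shared words the points run from 1.26% on day 0 to 13.2% on day 8.

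The difference was smaller but present among promoters that shared few words with other promoters. The score covers promoters only, so a low score does not make a sequence unique in the genome. With under 10% shared words on both sides, the share of CpGs listed was 0.647-fold that of olfactory receptor promoters (range 0.442 to 1.103, exact sign-flip p = 0.00391, adjusted p = 0.00391) and 0.542-fold that of other promoters of 1 to 4 CpGs (range 0.338 to 0.912, exact p = 0.000977, adjusted p = 0.00130). In the 43 receptor promoters that lie in windows without any position the median share of shared words was 100%, and 17 pairs among them had identical sequence. In the 279 others the median was 18.1%. How reads that match several places were treated is not given in the sources used here, and its part in the empty windows was not tested.

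Listed positions seldom recurred between libraries. Of 30444 receptor positions listed in any knock-in library, 58.0% appeared in 1 library, against 48.8% of other autosomal positions. In 6 or more of the 11 libraries appeared 0.253% of receptor positions and 0.465% of other positions. Among the few that recurred most the order differed. In exactly 9 libraries appeared 3 receptor positions (0.00985%), against 402 other positions (0.00349%), and in exactly 10 appeared 4 (0.0131%), against 211 (0.00183%). In all 11 appeared 0 receptor positions, against 271 other positions (0.00235%). These shares describe positions and carry no test.

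The wild-type libraries gave the background of the assay in the same windows. They listed 2, 5 and 12 receptor positions in WT and 18 and 5 in WT control, against 1060 to 7938 in the 11 knock-in libraries. As a share of all autosomal positions this was 0.0522%, 0.529% and 0.216% in WT and 0.199% and 0.146% in WT control, and pooled it was 42 of 22792, or 0.184% (95% interval 0.133% to 0.249%). Het libraries averaged 0.237% ± 0.00715 and WT libraries 0.266% ± 0.242 (SD, n = 3 each, two-sided exact permutation p = 1, where 3 against 3 cannot go below 0.1). All 11 knock-in libraries averaged 0.242% ± 0.0172 and all 5 wild-type libraries 0.228% ± 0.180 (SD, exact permutation p = 0.748). The share therefore did not differ detectably at this depth, whereas the number of positions did not overlap.

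The wild-type comparison rested on 1 library. WT replicate 2, with 5 receptor positions of 945, had the highest share, and without it the knock-in share exceeded the wild-type share by 0.0882 percentage points (exact permutation p = 0.000733). Of the 42 distinct wild-type receptor positions, 24 were also listed in a knock-in library.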

How the data were processed

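The authors deposited 1 table per library, with a row for each CpG position and its read count, at least 1 and not normalized, per the file headers and the values. The submitters' processing notes name cutadapt 4.4, BWA 0.7.17-r1188 and SAMtools 1.12, with the build mm10. Parameters, any duplicate filter and the treatment of reads that match several places are not stated there. Without molecular identifiers, PCR copies cannot be told from separate molecules, so distinct positions were counted beside reads. Unlisted positions were taken as 0. A gain in depth adds positions, so densities were compared within libraries.

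Reads and positions were summed in 50 kb windows and RefSeq gene bodies (GRCm38.p6, start and end only). Overlapping genes each received shared positions, and counts did not use strand. Other windows entered if a knock-in library listed a position in them. Olfactory receptor windows overlap coding genes whose symbols begin with Olfr, and no vomeronasal gene. Window and gene counts were fitted over the whole genome with edgeR 4.0.16 in R 4.3.3 (filterByExpr, TMM scaling, glmQLFit and glmQLFTest, day as a factor, the 8 day libraries, Benjamini-Hochberg threshold 0.05), with DESeq2 1.42.0 as an alternative. Each standard error was obtained from the log2 change and its F statistic. The fitted common biological coefficient of variation was 0.326 (window reads) and 0.00988 (window positions). At 0.00988 the fit of positions allowed almost no spread between replicates beyond counting error, so its p-values reflect mostly counting error. Single values were compared by two-sided exact permutation or sign-flip tests in Python 3.11.15 with numpy 2.4.6, pandas 2.3.3 and scipy 1.17.1. The procedures were tested on simulated data, with changes planted in features at or above the median abundance. Of 2-fold changes, 41% were recovered for window positions, 20% for window reads and 19% for gene body reads. Of 4-fold changes, 100%, 98% and 81% were. With reads in 20 kb windows it was 0% and 32%. Recovery in sparser features, such as many receptor windows, was not simulated, so a count of 0 does not show absence of change.

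Named windows were up to 6 called each way by size in each fit, the 3 densest and the 3 sparsest with a position, and the 8 largest clusters. Named genes were called receptor genes, the 3 most listed, the 3 longest without a position, Vmn2r65, and Trpc2, Gnai2 and Gnao1. The members and lists were chosen with earlier results of these data known. Vmn1r87, Vmn2r17, Vmn1r111, Vmn1r242 and Omp were named after their values were seen.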

Additional observations from a re-analysis of the deposited data

Results flagged for a closer look

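Vmn2r121, the receptor gene of the X chromosome, lies outside the autosomal windows and entered no comparison. Its body listed 14 positions over the 11 knock-in libraries, above the 0 in the 5 wild-type libraries. They were 1, 3 and 1 in Het, 0 and 0 on day 0, 0 and 0 on day 2, 1 and 4 on day 4, and 3 and 1 on day 8. The wild-type libraries listed at most 9027 autosomal positions each, so a 0 there says little about a single gene.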

How the results depend on the processing

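Of 203 alternative settings over 14 comparisons, 165 kept the direction and the side of the threshold or, for counts, stayed within 1.5 times. The 6 density and read ratios kept both when any 1 of the 11 libraries was left out (log2 -1.53 to -1.50 against other windows, -0.60 to -0.57 olfactory, -1.06 to -1.04 without a coding gene, 0.17 to 0.21 Vmn1r over Vmn2r, -0.46 to -0.39 gene body, -0.18 to -0.16 reads per position). The exception among their other settings was olfactory receptor windows per listed position (-0.0071).

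Trends moved more. For the share of positions, leaving out 1 library gave r = -0.730 to -0.538 and at least 2 reads gave -0.721. For reads the range was -0.686 to -0.356, and 20 kb windows turned r to 0.380. The gene body trend ranged from 0.736 to 0.833 and missed the threshold without day 4 replicate 1 (exact p = 0.0524). Het minus WT ran from -0.135 to 0.103 percentage points. Knock-in minus wild type ran from -0.0310 to 0.0882, and was -0.00451 at 20 kb, -0.0310 without WT replicate 1 and -0.00765 without WT control replicate 2.

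Position calls ranged from 6 to 16 with 1 library left out, and were 8 with DESeq2, 3 at 20 kb and 0 for day 8 against day 2. Read calls ranged from 0 to 86 and were 49 with DESeq2, 0 with the 4 libraries alone and 0 at 20 kb. Gene body calls ranged from 0 to 18 and were 20 with DESeq2 and 0 with the 4 libraries alone. The cause of these shifts was not tested. Of the named windows and gene, 0 reversed, and 16 of 83 settings for positions, 82 of 130 for reads and 8 of 13 for the gene body lost the call.

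Same-numbered replicates did not deviate together (correlations -0.011 to 0.012 over 6 pairs of days). These correlations were taken over single windows, where counting error could hide a shared culture or batch, so they do not exclude pairing. With a replicate block the counts were 15 by positions, 0 by reads and 0 by gene bodies, and r was -0.657, -0.549 and 0.795 for the 3 trends, the last with an exact p = 0.0556. Densities per reference CpG were not run, as no genome sequence was used here. Low depth on day 0 and in wild type limits every statement about them.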
